A study of Homo sapiens with 6 samples.

Results

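This account describes 9 genes of the complement system: C3, CFB, CFI, C1R, C1S, C4BPB, SERPING1, CD55 and CD59. They were chosen by gene symbol, and all 18 probe sets annotated to exactly 1 of these symbols were followed, among the 19775 genes represented on the arrays. None of the 9 symbols occurred on a probe set shared with another gene. Caco-2 cells come from a human colon cancer and form a polarised monolayer resembling small-intestinal enterocytes, and THP-1 is a line of human leukaemic monocytes. Caco-2 cells were grown on a porous membrane for 14 days, which was then set over THP-1 cells that phorbol myristate acetate (PMA) had differentiated for 4 days in plates with 12 wells. RNA of the Caco-2 cells was hybridised at 0, 1, 3, 6, 24 and 48 h of coculture, with 1 array at each time. There was no replicate and no array of Caco-2 cells kept alone for the same time among those analysed here, so effects of coculture and of time in culture cannot be told apart.

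Complement is a cascade of plasma and tissue proteins that tags targets for uptake and can lyse them. The C1 complex, with the proteases C1R and C1S, starts the classical pathway, C3 is the component on which the pathways meet, and factor B, encoded by CFB, supplies the protease of the alternative pathway. Host cells limit the cascade with soluble inhibitors such as factor I (CFI), C4b-binding protein (of which C4BPB encodes the beta chain) and C1 inhibitor (SERPING1), and with the membrane-anchored proteins CD55, which speeds the decay of the convertases, and CD59, which blocks the membrane attack complex. The liver is the main source of plasma complement, and intestinal epithelium is known to make several components as well.

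CD55 was the single member with a signal at least 2-fold above 0 h, and C1S the single member at least 2-fold below it. CD55 was 2.16-fold higher at 1 h and 4.73-fold higher at 48 h by its brightest probe set. C1S was lower by 2.54-fold at 24 h and 2.25-fold at 48 h. C3, CFB, C1R, C4BPB and CD59 stayed within 2-fold of 0 h at each time, CFI was above the floor in the 3 and 6 h arrays alone, and SERPING1 did not pass the floor. The floor is a signal of 16.2, the median of all deposited values, and a signal under it is treated as not measured.

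At 1, 3 and 6 h, 1 of the 9 members was higher and none was lower, and at 24 and 48 h 1 was higher and 1 lower. Over the 14623 genes above the floor on at least 1 array, the shares at least 2-fold higher were 1.9%, 3.1%, 4.23%, 3.95% and 3.82% in order of time. Those at least 2-fold lower were 1.44%, 3.52%, 6.45%, 6.14% and 6.14%. With 1 gene called in a direction, the member counts were not read as differing from these shares. The median log2 ratio over the 8 members above the floor on at least 1 array was -0.12, -0.17, 0.09, -0.17 and -0.28 at the 5 coculture times, beside 0.00, -0.02, -0.04, 0.00 and -0.0069 over all measured genes. Genes at the floor pull the latter to 0. Over the genes above the floor on all arrays the median was -0.04, -0.10, -0.14, -0.07 and -0.10.

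The arrays were alike in median signal (15.3 to 16.7). For ACTB, the 3' over 5' ratio of the control probe sets, which reflects RNA integrity and labelling, was 51.2 at 0 h and 18.0 to 37.0 during coculture, while that for GAPDH was 4.69 at 0 h and 3.54 to 4.72 later. Their part in the changes from 0 h was not tested. All 11 epithelial markers, general or of enterocytes, with a probe set of their own were above the floor on each array. Their summed signal was 21993 at 0 h and 23444 to 25975 during coculture. Single markers went different ways: FABP1 went from 2086 at 0 h to 478 at 48 h, and KRT20 from 207 to 412. Of 16 monocyte and macrophage markers with a probe set of their own, 6 were above the floor on each array (CD14, LYZ, AIF1, ITGAM, LAPTM5 and MSR1). PTPRC, SPI1, C1QA, C1QB and C1QC were above it on none. The summed signal of these 16 was 986 at 0 h and 630 to 859 during coculture. Its members went different ways: AIF1 went from 360.0 at 0 h to 43.0 at 48 h, and LYZ from 247 to 412. The part of such cells in the CD55 and C1S differences was not tested. In 7 fibroblast markers, of a cell type rich in C1R and C1S, the sum was 423 at 0 h and 373 to 521 later. COL1A1 and LUM were above the floor throughout. Fibroblasts were not among the cells cultured, so these signals were not read as fibroblast content. Fewer cells of a type and less RNA per cell cannot be told apart in these bulk samples.

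As a guide to measurement error, log2 ratios of 1 h to 0 h were compared between probe sets of the same gene. In bins of signal, the robust SD per probe set came to 0.43 (64 to 128), 0.32 (128 to 256), 0.26 (256 to 512), 0.21 (512 to 1024) and 0.14 (above 1024). This spread holds no variation between cultures, which was not measured.

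**Figure D1:**
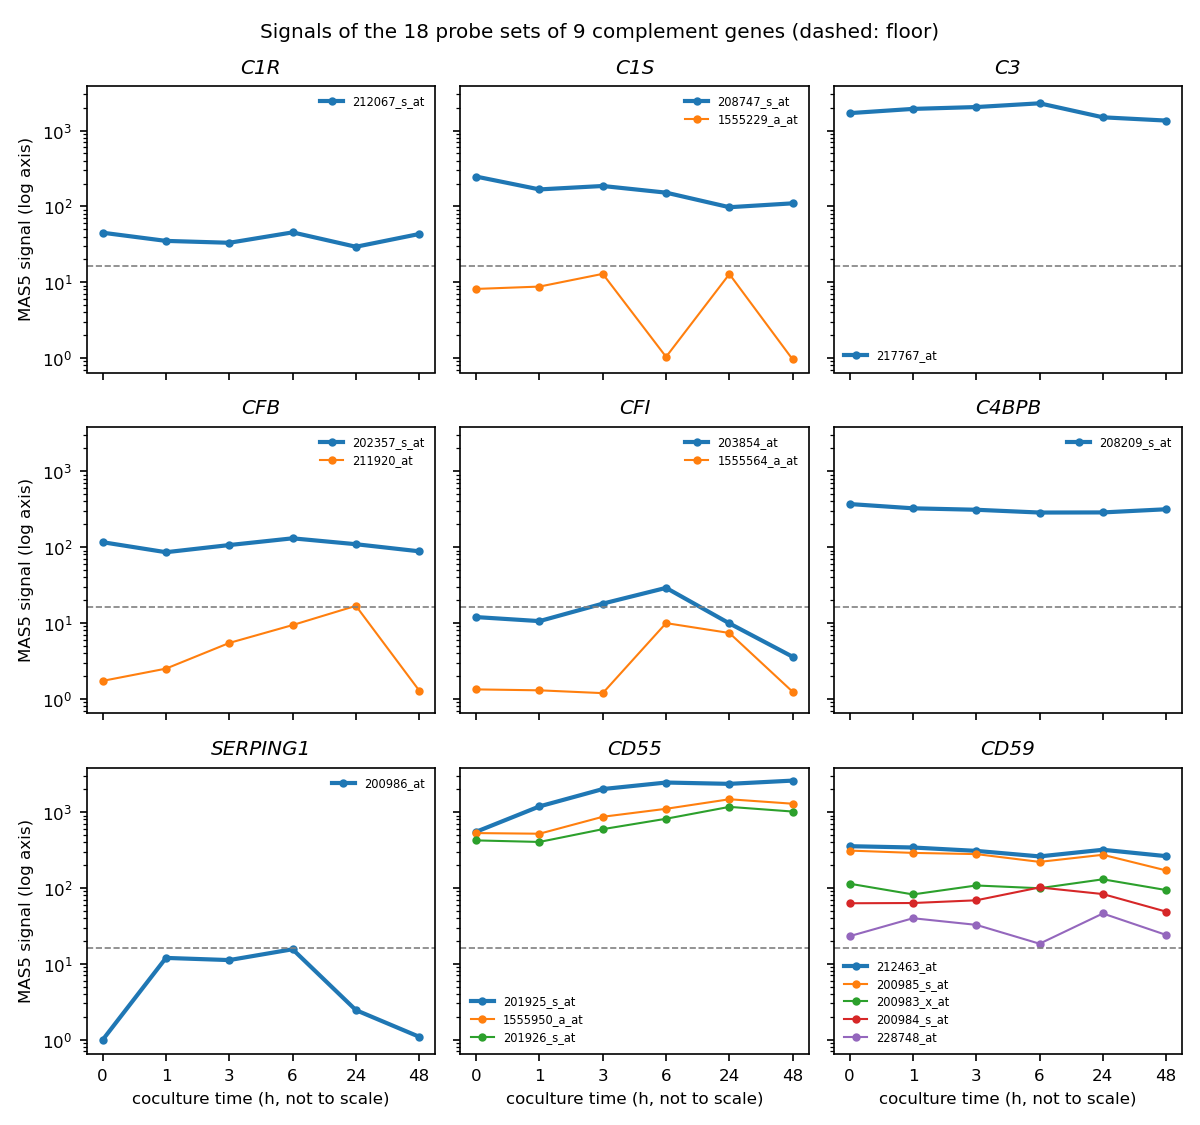
MAS5 signal on a log axis against coculture time in h (times evenly spaced) for all 18 probe sets of the 9 genes, 1 array per time. The thick line is the brightest probe set of each gene and the dashed line the floor of 16.2. CD55 goes up on all 3 of its probe sets, C1S goes down from 247 to 110, and SERPING1 lies under the floor throughout.

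Among the initiating proteases, C1S, the enzyme that cleaves C4 and C2, gave signals of 247, 167, 185, 152, 97.4 and 109.5 on probe set 208747_s_at, here and below in the order 0, 1, 3, 6, 24 and 48 h. Its value at 0 h was the highest of the 6 and the late pair was the lowest. The log2 ratios to 0 h were -0.56, -0.41, -0.70, -1.34 and -1.17. At 24 h it ranked 360th from the lowest of the 14623 measured genes. The difference at 24 h is larger than the robust SD of 0.32 between probe sets at such signals. Against the 1 h array instead, the log2 ratios at 24 and 48 h were -0.78 and -0.61, short of 2-fold, so the call depends on the single 0 h array. The second probe set of C1S, 1555229_a_at, was under the floor on each array, with signals of 0.96 to 12.9, and gives no second reading.

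C1R, which activates C1S and lies beside it on the chromosome, gave signals of 44.9, 35.0, 33.1, 45.3, 29.3 and 43.2. These values went up and down without a steady direction, and the lowest, at 24 h, was 1.53-fold under 0 h. A log2 difference of -0.62 is near the spread between probe sets at low signals, with a robust SD of 0.49 between 32 and 64. At 48 h, where C1S was 2.25-fold lower, the log2 ratio of C1R was -0.06. The difference between both genes was not tested.

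C3, the central component, gave signals of 1695, 1928, 2039, 2285, 1494 and 1353. It was highest at 6 h, with a log2 ratio to 0 h of 0.43, and lowest at 48 h, with -0.33. The step from 6 to 24 h, a log2 difference of -0.61, was the largest between neighbouring times, at signals where probe sets of a gene spread by 0.14. None of the values was 2-fold from 0 h.

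CFB, the protease precursor of the alternative pathway, gave signals of 116, 85.7, 106, 131, 109 and 88.1 on probe set 202357_s_at. Its log2 ratios ran from -0.44 at 1 h to 0.17 at 6 h, a range comparable with the robust SD of 0.43 between probe sets at these signals. Its other probe set, 211920_at, passed the floor at 24 h alone, with a signal of 16.8. As in C3, the highest value of the brighter probe set was at 6 h.

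Among the soluble regulators, CFI, which encodes the protease that inactivates C3b and C4b, gave signals of 11.9, 10.6, 18.0, 29.0, 9.87 and 3.58 on 203854_at. The readings at 3 and 6 h were above the floor and the others under it, so that CFI was higher by at least 1.11-fold (3 h) and at least 1.79-fold (6 h). The second CFI probe set, 1555564_a_at, was under the floor on each array, with signals of 1.19 to 9.95, and gives no second reading. The bound at 6 h, a log2 ratio of 0.84, stands beside a robust SD of 0.46 between probe sets at signals of 16 to 32. With the floor at the 30th percentile of all values, a signal of 6.38, the log2 ratio at 6 h was 1.28, past 2-fold. With the floor at the 65th percentile, a signal of 37.5, it was 0.00, and with the median over probe sets it was 0.42. These 2 values were fixed in advance. A floor of 37.5 lies above every CFI reading, and the median lies midway between 203854_at and a probe set at the floor.

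C4BPB gave signals of 370, 325, 311, 286, 287 and 316. Each coculture value was under that of 0 h, with log2 ratios of -0.19 to -0.37, beside a robust SD of 0.26 between probe sets at such signals. SERPING1, the inhibitor of C1R and C1S, gave signals of 0.99, 11.9, 11.2, 15.5, 2.44 and 1.09. All 6 were under the floor, so neither a level nor a change was measured.

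CD55, also called decay-accelerating factor, has 3 probe sets. On 201925_s_at, the brightest, the signals were 550, 1189, 2013, 2454, 2358 and 2603. On 1555950_a_at they were 529, 519, 868, 1105, 1477 and 1290. On 201926_s_at they were 423, 404, 596, 817, 1172 and 1017. From 3 h on, every reading lay above both the 0 h and the 1 h value of its own probe set.

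The log2 ratios of the brightest probe set were 1.11, 1.87, 2.16, 2.10 and 2.24 at 1, 3, 6, 24 and 48 h. Among the 14623 measured genes its rank from the highest went from 204 at 1 h over 81, 56 and 28 to 15 at 48 h. The increase was made up mostly by 6 h: the signal was 2.16-fold, 1.69-fold and 1.22-fold that of the previous time at 1, 3 and 6 h, then 0.96-fold and 1.10-fold at 24 and 48 h. The last 3 values differed by at most 0.14 on the log2 scale, the same as the robust SD of 0.14 between probe sets at that brightness, and were not put in order.

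The other probe sets gave smaller and later increases. On 1555950_a_at the log2 ratios were -0.028, 0.71, 1.06, 1.48 and 1.29, and on 201926_s_at they were -0.068, 0.49, 0.95, 1.47 and 1.26. Both were near 0 at 1 h and highest at 24 h, and the latter fell short of 2-fold at 6 h. The gap between the brightest probe set and the others was 1.14 and 1.18 on the log2 scale at 1 h, up to 1.38 at 3 h, and narrowest at 24 h, with 0.62 and 0.63; at 48 h it was 0.96 and 0.98. The gaps at 1 h are several times the robust SD per probe set, 0.21 at signals of 512 to 1024 and 0.26 at 256 to 512. A gap is a difference between 2 probe sets, so its own spread is wider than these values. The first-hour increase of CD55 therefore rests on 1 of 3 probe sets, while at 24 and 48 h all 3 were at least 2-fold higher. The files do not say which transcripts of CD55 each probe set reads.

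Against the 1 h array, the probe sets were closer to each other. At 6, 24 and 48 h the brightest was 2.06-fold, 1.98-fold and 2.19-fold higher than at 1 h. Over the same times 1555950_a_at was 2.13-fold, 2.85-fold and 2.49-fold higher, and 201926_s_at 2.02-fold, 2.90-fold and 2.52-fold. On this baseline CD55 passed 2-fold at 6 and 48 h by its brightest probe set, and the log2 ratio at 24 h was 0.99.

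**Figure D2:**
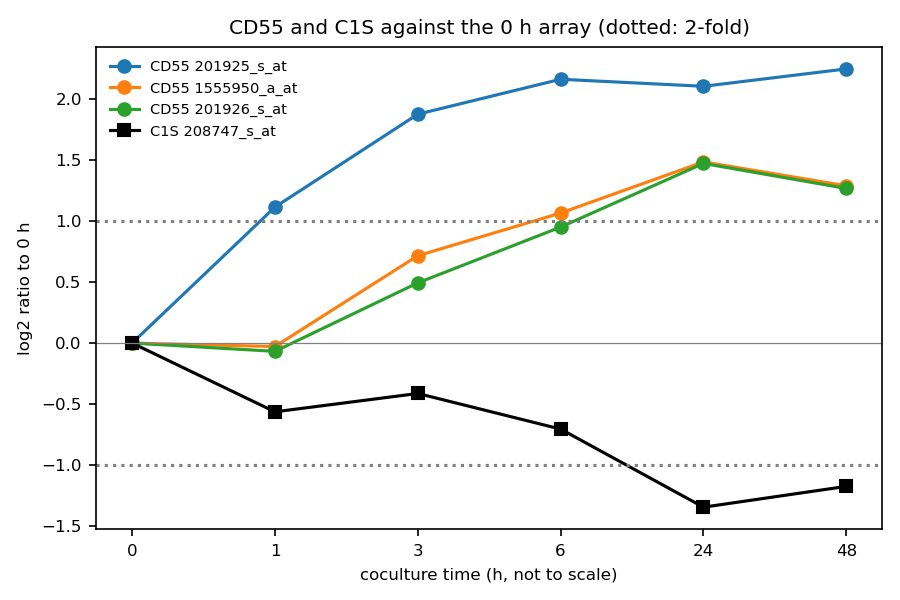
Log2 ratio to the 0 h array against coculture time in h (times evenly spaced) for the 3 probe sets of CD55 and the brightest of C1S, 1 array per time; dotted lines mark 2-fold. One CD55 probe set is already at 1.11 at 1 h while the other 2 are at -0.028 and -0.068, and all 3 lie between 1.26 and 2.24 at 48 h.

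CD59 has 5 probe sets, each above the floor on every array, and they did not move together. On the brightest, 212463_at, the signals were 355, 341, 308, 260, 319 and 262. On 200985_s_at they were 311, 290, 279, 220.5, 274 and 170.0, the last 1.83-fold lower than 0 h. Both were below 0 h at each coculture time, with a dip at 6 h and a return at 24 h. The 3 dimmer probe sets went elsewhere: 200984_s_at was 1.62-fold higher at 6 h, 200983_x_at had log2 ratios of -0.47 to 0.19, and 228748_at, at signals of 18.4 to 46.0, reached 0.99 at 24 h. No CD59 probe set was 2-fold from 0 h at any time.

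The membrane regulators CD55 and CD59 thus had different courses: the brightest probe set at 48 h had a log2 ratio of 2.24 for CD55 and of -0.44 for CD59. CD46, a further membrane regulator that acts as cofactor of factor I, had a signal of 2601 at 0 h and log2 ratios of 0.20, 0.26, 0.42, 0.20 and 0.28.

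Promoter windows were taken from a RefSeq table of build GRCh38.p14, which matched 6 of the 9 members (C4BPB, CD55, CFI, CFB, CD59 and C1R) with 12 transcript starts. The 250 bases before the start are shown for CD55, the member with the largest increase, for CFI, the soluble regulator with a peak at 6 h, and for CFB, chosen after its motif matches were seen. Capitals mark motif matches, on either strand. The windows are chr1:207321428-207321677 (plus strand) for CD55, chr4:109802000-109802249 (minus strand) for CFI and chr6:31945845-31946094 (plus strand) for CFB.
CD55: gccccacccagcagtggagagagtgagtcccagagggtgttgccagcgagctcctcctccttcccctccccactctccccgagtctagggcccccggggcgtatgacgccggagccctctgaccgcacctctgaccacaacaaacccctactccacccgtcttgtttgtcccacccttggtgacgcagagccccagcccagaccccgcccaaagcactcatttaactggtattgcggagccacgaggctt
CFI: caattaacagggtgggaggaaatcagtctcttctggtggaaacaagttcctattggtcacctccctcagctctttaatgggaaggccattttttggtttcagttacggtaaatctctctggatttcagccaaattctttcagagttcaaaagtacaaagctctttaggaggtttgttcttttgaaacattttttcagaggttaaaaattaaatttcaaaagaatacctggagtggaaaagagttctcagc
CFB: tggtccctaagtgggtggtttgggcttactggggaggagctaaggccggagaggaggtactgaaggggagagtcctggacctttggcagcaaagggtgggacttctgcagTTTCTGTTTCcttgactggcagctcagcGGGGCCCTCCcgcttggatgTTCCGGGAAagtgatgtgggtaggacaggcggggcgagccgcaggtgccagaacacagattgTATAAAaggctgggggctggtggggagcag
The motifs searched, in the 250 bases before each start and on both strands, were the NF-kB site, the STAT-type GAS element TTCNNNGAA, the interferon element core GAAANNGAAA, the C/EBP element TTGCNNAA and the TATA box TATAAA. The windows of CD55 and CFI held none of these 5. That of CFB held an NF-kB match at -112, a GAS match at -92, an interferon core at -140 and a TATA box at -30 relative to the start, with no overlap among them. Of the 35116 windows of the same length in the table, 9.96% held an NF-kB match, 6.57% a GAS match, 3.02% an interferon core, 9.05% a C/EBP match and 10.7% a TATA box. GAS matches were also in windows of C4BPB, CD59 and C1R, and C/EBP matches in windows of CD59 and C1R. The CD55 window had a G+C share of 64.0%, that of CFI 38.0% and that of CFB 60.0%, beside a median of 58.0% over all windows. A match is a run of letters and does not show binding.

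CD55 and C4BPB lie in a chromosome region that holds further complement regulators. C4BPA, the next protein-coding gene on one side, which encodes the alpha chain of C4b-binding protein, had signals of 496, 541, 690, 827, 897 and 389 at the 6 times. Its 24 h signal was 1.81-fold that of 0 h, and its log2 ratio was -0.35 at 48 h. CR2, the next protein-coding gene on the other side and a complement receptor of B cells, was under the floor on each array, as was CR1L. CR1 was under it at 0 h, with a signal of 6.94, and passed it at 24 h (21.1) and 48 h (21.4), so that it was higher by at least 1.30-fold and 1.32-fold. The log2 ratio of C4BPB was -0.37 at 24 h, while that of C4BPA was 0.86, although both chains belong to 1 protein.

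Of 45 other complement genes listed, 38 had a probe set of their own, 24 were above the floor on at least 1 array and 8 on all 6. By the size rule none was at least 2-fold higher at any time, and at 1, 3, 6, 24 and 48 h, 0, 0, 2, 6 and 5 were at least 2-fold lower. With the 1 h array as baseline in place of 0 h, the counts at 24 and 48 h were 3 and 3. Against 0 h, the shares of all measured genes at least 2-fold lower were 6.45% at 6 h and 6.14% at both late times. No such share is given for the 1 h baseline, so the counts from 1 h have no share to stand beside. The median log2 ratio of the 24 was 0.00, 0.00, -0.11, -0.10 and -0.16 in order of time, beside 0.00, -0.02, -0.04, 0.00 and -0.0069 over all measured genes. With 1 array per time no test of the list was made. Several of its genes are at the floor, as are some of all measured genes, which pulls both medians to 0.

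C2, the substrate of C1S in the classical pathway, had signals of 141, 113, 126, 56.0, 59.8 and 39.4, and was 3.57-fold lower at 48 h. MBL2, the mannose-binding lectin that starts the lectin pathway, had signals of 181, 223, 150, 111, 77.9 and 62.8, and was 2.88-fold lower at 48 h. C5, from which the terminal pathway begins, had signals of 75.5, 47.7, 46.1, 34.8, 30.4 and 36.3, and was 2.48-fold lower at 24 h. Against the 1 h array the late falls of C5 were 1.57-fold and 1.31-fold, short of the rule. C2 was 1.88-fold lower at 24 h, also short of it, and 2.86-fold lower at 48 h. MBL2 was 2.86-fold lower at 24 h and 3.55-fold lower at 48 h. All 3 had their lowest readings at 24 or 48 h, as C1S did. These genes and C1S were picked out for being at least 2-fold lower at those times against the same 0 h array. That choice favours a shared late minimum, to an extent that was not tested, so the minimum was not read as a common pattern.

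C8B, a chain of the membrane attack complex, had signals of 58.4, 54.6, 70.1, 42.6, 14.0 and 16.0, the last pair below 16.2, so that its fall was at least 3.60-fold at both late times. C8A, another chain of C8, had signals of 32.6, 27.6, 51.8, 26.3, 3.03 and 9.11, a fall of at least 2.01-fold at those times. From 1 h the bounds were 3.37-fold for C8B and 1.70-fold for C8A. MASP1, a protease of the lectin pathway, was at least 2.10-fold lower at 24 h, but its log2 ratio at 48 h was -0.53 and no other probe set supported it. C9, C6 and C7 were under the floor on each array.

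**Figure D3:**
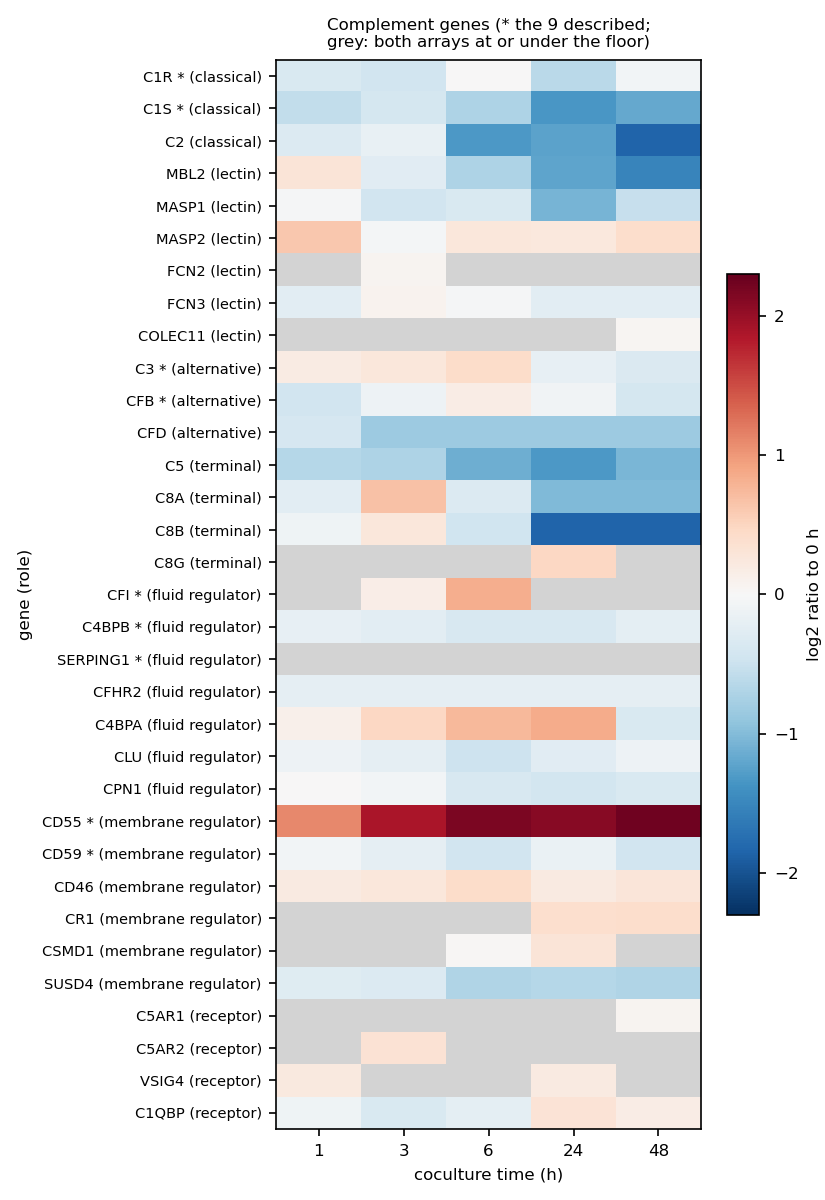
Log2 ratio to 0 h (colour scale) at each coculture time in h for the 9 genes described (asterisks) and the 24 other complement genes above the floor on at least 1 array, ordered by role; a ratio with 1 array under the floor is a bound, and grey cells have both arrays at or under it. CD55 is the single row past 1 upwards, and the cells past -1 belong to C1S, C2, MBL2, MASP1, C5, C8A and C8B.

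The genes nearest in course to the brightest probe set of CD55 were sought by root mean square difference of the 5 log2 ratios. Among the 10446 genes above the floor on all arrays they were PLK2 (0.25), AAGAB (0.26) and RHPN2 (0.35). The other CD55 probe sets, with smaller ratios, were not used in this search. PLK2 encodes a polo-like kinase, and its log2 ratios were 0.77, 2.17, 2.27, 2.12 and 1.93. Those of AAGAB were 0.85, 2.16, 2.41, 1.77 and 2.22, and those of RHPN2 were 1.18, 1.99, 1.88, 1.69 and 1.65. None of the 3 belongs to the complement list. For C1S the nearest were SYNE2 (0.10), PPFIBP2 (0.12) and MGST3 (0.13), a microsomal glutathione transferase, with log2 ratios at 48 h of -1.15, -0.95 and -1.22. The likeness is a description over 6 arrays that share the 0 h reading.

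**Figure D4:**
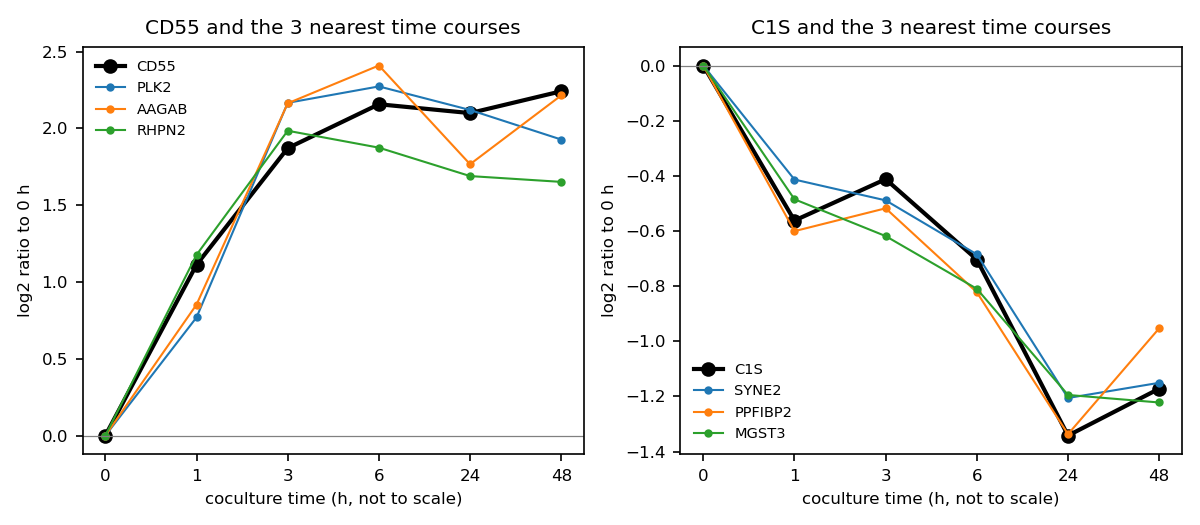
Log2 ratio to 0 h against coculture time in h (times evenly spaced), 1 array per time, for CD55 (left) and C1S (right) by their brightest probe sets, each with the 3 genes of nearest course. The CD55 set lies at 1.65 or higher from 3 h on, and the C1S set goes down to -1.19 or lower at 24 h.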

How the data were processed

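RNA of 6 Caco-2 cultures, 1 per time, was hybridised to Affymetrix arrays after labelling from 4 µg of total RNA, per the labels' protocols. The deposited values are linear intensities, 1 per probe set and array, made with MAS5 per the submitters' processing notes. The MAS5 version, scaling target and detection calls were not given in the sources used here. The software scales each array, so the amount of RNA in a cell is not measured. The trimmed mean (2% off each end) was 93.8 on each array, and no further scaling was applied.

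Values under 16.2, the 50th percentile of all deposited intensities, were set to it and log2 was taken (Python 3.11.15, pandas 2.3.3). Of 54675 probe sets, 41091 had 1 gene symbol (platform annotation, updated through a GRCh38.p14 gene table that held the gene identifiers of 41037), and control probe sets were left out. Each of 19775 genes was represented by its brightest probe set (mean log2 signal). A gene counted as higher or lower at a difference of at least 2-fold from 0 h with the brighter array above the floor; against an array under the floor a fold is a lower bound. With 1 array per time there is no test, no error between cultures and no p-value, and precision is limited by the number of arrays.

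The named genes are the 9 members, other complement genes past 2-fold with support of 1.5-fold at the time before or after or by a further probe set, and the 3 nearest time courses of each member past 2-fold. MASP1, CD46, C4BPA, the C6, C7 and C9 genes, genes beside CD55 or C1S on the chromosome and marker genes are named outside this rule. The members and lists were chosen with earlier results of these data known. Results were recomputed with quantile normalization, with a common median, with other floors, a pseudocount, other choices of probe sets, the 1 h baseline and other size rules.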

Additional observations from a re-analysis of the deposited data

How the results depend on the processing

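No paired analysis was possible because each time has 1 array. Log2 ratios of the members kept their side of the 2-fold rule in 327 of 341 recomputations. Many of these ratios were far from 2-fold or at the floor and could hardly change side. The 10 that became weaker than 2-fold and the 2 that changed sign all belonged to CD55 or C1S, the members called. Member counts stayed within 1.5 times in 79 of 98, and counts of the other complement genes in 72 of 98. Quantile normalization and a common median moved no count or call beyond these limits. With the median over probe sets or without _x_at and _s_at probe sets, CD55 had log2 ratios of -0.028 at 1 h, the opposite sign, and 0.71 at 3 h, so 0 members were higher at those times; both settings read the probe sets that gave smaller ratios. C1S was then at -0.67 and -0.59 (median) or 0.00 and 0.00 (without those probe sets, where the remaining one is under the floor) at 24 and 48 h, with 0 members lower. The median for C1S lies midway between its brighter probe set and the other, which is under the floor on each array. Both outcomes for C1S were thus fixed in advance and give no second reading of it. Against the 1 h array, CD55 was at 0.76 at 3 h and 0.99 at 24 h, with 0 members higher at both, and C1S at -0.78 and -0.61 at 24 and 48 h, with 0 lower. With the floor at the 30th percentile 3 members were higher at 6 h, as CFI and SERPING1 each reached 1.28. At 1.5-fold, 2 members were higher and 1 lower at 6 h, and 2 lower at 24 h; at 3-fold, 0 were higher at 1 h and 0 lower at 24 and 48 h. Of the other complement genes, the 30th percentile floor made 3, 2, 5 and 10 lower at 1, 3, 6 and 48 h and 3, 1, 3 and 3 higher at 3, 6, 24 and 48 h, and the 65th made 3 lower at 24 and 3 at 48 h. A pseudocount made 1, 1 and 3 lower at 1, 3 and 48 h, the median over probe sets 1 lower at 6 h, and the 1 h baseline 3 lower at 24 and 3 at 48 h. At 1.5-fold, 1, 2 and 5 were lower at 1, 3 and 6 h and 1 each was higher at 1, 3, 6 and 24 h; at 3-fold, 0, 1 and 2 were lower at 6, 24 and 48 h. Shares of all measured genes are given for the main setting alone. Counts under the other settings were therefore not read as a result about complement genes. Apart from what is said here, the cause was not tested. Signals under the floor on part or all of the arrays limit CFI, SERPING1, C8A and C8B, among others.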

Other observations

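The protein-coding genes beside C1S were also read, after their values were seen. C1RL, which encodes a protease resembling C1R and lies next to C1R, had signals of 202, 187, 129, 97.6, 204 and 214 at 0, 1, 3, 6, 24 and 48 h. Its lowest reading was at 6 h, with a log2 ratio of -1.05, and its values at 24 and 48 h were within 0.09 of 0 h on the log2 scale, whereas C1S was lowest at those times (-1.34 and -1.17). LPCAT3, a phospholipid acyltransferase on the other side of C1S, had log2 ratios of -0.23 to -0.43.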
